A study of Homo sapiens with 4 samples.

Results

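The 57 genes described here act in mitosis and chromosome segregation, and were taken as the rows of the deposited expression table whose gene symbol equals a name on a list of kinetochore, kinesin, checkpoint, cytokinesis and related genes. All 57 names were found among the 26603 genes of the table. Messenger RNA came from PLC8024, an established line of human liver cancer cells, with 2 control libraries and 2 libraries from cells given a drug. Neither the drug nor its dose or treatment time is named, and no genotype difference between the groups is given. Nothing says that the libraries are separate cultures, so the p-values reflect the spread among these 4 libraries alone, which may be technical. Levels are in FPKM, fragments per kilobase of gene model and per fixed number of fragments of a library. Levels of different genes can be set side by side only as far as the gene lengths behind them are right, and for NCAPH and NUSAP1 the implied length departed from the annotated one by 2.00 and 1.26 times. The comparison asks which transcripts differ between drug and control cells.

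Mitosis is entered when B-type cyclins activate the kinase CDK1, with help from the Polo and Aurora kinases. Kinetochores, protein assemblies built on centromeres, then attach chromosomes to spindle microtubules, and kinesin motors shape the spindle and move chromosomes along it. The spindle assembly checkpoint holds the anaphase-promoting complex inactive until every kinetochore is attached. Its release destroys securin and frees separase to cut the cohesin rings between sister chromatids, after which a contractile ring divides the cell. Most of these genes are transcribed late in the cell cycle, and their messenger RNAs are commonly read as a sign of proliferating cells in liver tumours.

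Recovered reads assigned to genes numbered 28526098 in control library 1, 38611635 in control library 2, 40279560 in drug library 1 and 38685856 in drug library 2. Of the liver markers listed, FGB, a fibrinogen chain, stood at 556 and 549 FPKM in control against 295 and 274 FPKM with drug, and ALB (albumin) at 3.15 and 3.23 against 1.31 and 1.32 FPKM. The keratins KRT18 (158 and 164 against 221 and 233 FPKM) and KRT8 (130 and 137 against 171 and 180 FPKM) and the factor HNF4A (22.5 and 22.3 against 25.4 and 25.5 FPKM) were higher in both drug libraries, and APOA1 was lower, at 17.5 and 17.1 against 14.3 and 15.4 FPKM. TTR was at most 0.0238 FPKM, APOB at most 0.0384 FPKM and AFP at most 0.449 FPKM, so several defining hepatocyte genes were at or near 0 in this line. Fibroblast markers COL1A1, COL1A2 and DCN stayed at or below 0.0891 FPKM and PDGFRB read 0.359 and 0.327 against 0.626 and 0.598 FPKM, the leukocyte marker CD79A at or below 0.115 FPKM, and the endothelial markers VWF and CDH5 at or below 0.0431 FPKM, while PECAM1 read 4.66 and 4.11 FPKM in control against 2.09 and 2.23 FPKM with drug. PTPRC, CD3E and CD68 were not analysed here.

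With drug, 31 of the 54 mitotic genes tested rose and 0 fell, by limma with Benjamini-Hochberg adjustment over the 11227 genes whose mean reached 1 FPKM in either group. That is 57.4% of the mitotic genes, against 7.78% of all genes tested that were called higher and 6.02% that were called lower. At an unadjusted limma p under 0.05, 43 were higher and 1, AURKA, was lower. Of all 11227 genes tested, 2357 were higher and 1360 lower at that threshold. The rises were small: across the 31 the change in mean FPKM ran from 9.74% to 102% with a median of 20.3%, 23 of them lay between 15% and 27%, and 1, the separase gene ESPL1, exceeded 1.5-fold. The median log2 fold change of the 54 was 0.22, against 0.04 over all genes tested. In 50 of the 54 (92.6%) both drug libraries stood above both controls, a separation that 40.3% of all genes tested showed in that direction and 23.3% in the opposite one. AURKA was the 1 gene with both drug libraries below both controls, and in MAD2L1, KIF15 and ASPM the groups overlapped. In bulk RNA, a larger share of cells in or near mitosis and more of each transcript per mitotic cell cannot be told apart.

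TMM scaling, edgeR and DESeq2 gave between 26 and 32 mitotic genes called higher, while 12 passed with no filter on low values and fewer passed when a library was left out. With no filter, 170 of all 26603 genes were called higher and 214 lower. After TMM scaling, which corrects library totals for composition, 26 mitotic genes were called higher and 0 lower, where 4.89% of all genes were called higher and 6.44% lower. CDK1, PTTG1, KNL1, KIF2C and MKI67 lost their calls there, with adjusted p from 0.0511 to 0.0852. Over all genes that scaling moved the split from 873 higher and 676 lower to 549 higher and 723 lower. After TMM scaling both drug libraries stood above both controls in 44 of the 54 mitotic genes, where 50 did before it. Over the 11227 genes tested, that separation went from 4521 to 3741 upward and from 2613 to 3134 downward. In chromosome structure it went from 6 to 3 of the 6 genes. On recovered reads edgeR called 31 mitotic genes higher and 1 lower (AURKA), with 8.37% of all genes called higher and 11.0% lower. DESeq2 called 32 higher and 1 lower, again AURKA, with 7.94% of the genes it tested called higher and 9.32% lower. The authors' deposited table had 29 of them higher and 1, AURKA, lower at an adjusted p under 0.05, against 3.18% of its 26603 genes called higher and 4.03% lower, and 28 of those 29 were also among the 31. With control library 1, control library 2, drug library 1 or drug library 2 left out, 4, 4, 7 and 9 mitotic genes passed. In those fits the adjusted p of the 31 lay between 0.0209 and 0.172, and ESPL1 and KIF4A passed in all 4, ANLN in 3, NDC80 in 2, a further 10 in 1 and the remaining 17 in none. The log2 fold change of each of the 31 stayed above 0 after TMM scaling, by edgeR and by DESeq2. In the other alternatives its sign could not change, because both drug libraries stood above both controls in each of the 31.

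**Figure D1:**
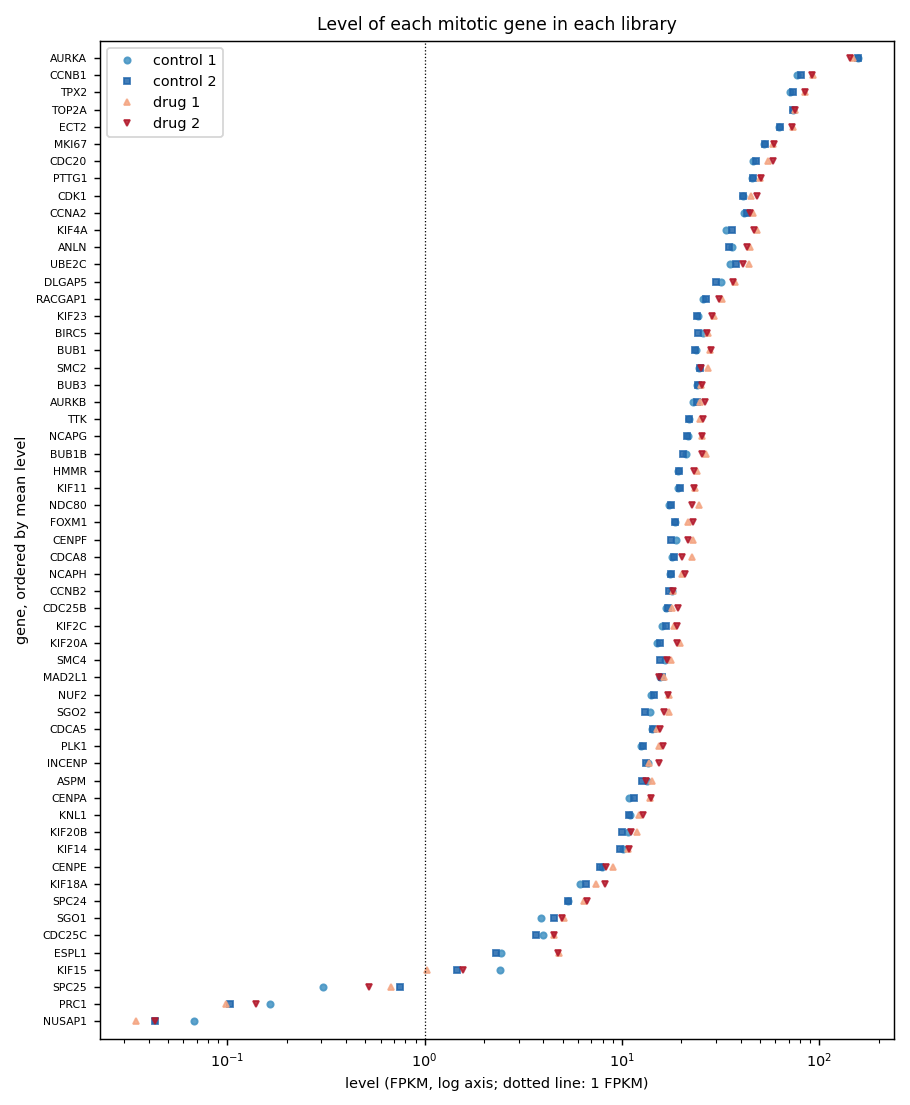
Level of each of the 57 mitotic genes in each library, in FPKM on a log axis, ordered by mean level, with circles and squares for control libraries and triangles for drug libraries. AURKA is highest with its drug libraries to the left of its controls, most other genes have both drug libraries slightly to the right, and SPC25, PRC1 and NUSAP1 lie left of the dotted line at 1 FPKM.

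Promoter sequences are shown for the genes with the largest rises and for those with the smallest changes, because late cell cycle genes often carry short words near the start of transcription. Each is the 150 bases directly before a RefSeq transcript start (RefSeq, GRCh38.p14), 5′ to 3′ on the gene's strand. Distances hold for that start only. In the GENCODE 29 gene models KIF20A and MAD2L1 begin upstream of their whole stretches, and NDC80, CCNB2, TOP2A and KIF4A begin within theirs. Capitals mark CCAAT, the word of the factor NF-Y (ATTGG when it lies on the other strand), the words TTTGAA or TTCGAA, which resemble the cell cycle genes homology region (CHR), and E2F-like words, spelled TTCCCGC in one form, TTCGCGC in another, TTGCCGC in the third and TTGGCGC in the last. Every word was searched on both strands. The first 4 genes rose and the last 3 did not pass the test.
ESPL1, chr12:53268149-53268298, plus strand: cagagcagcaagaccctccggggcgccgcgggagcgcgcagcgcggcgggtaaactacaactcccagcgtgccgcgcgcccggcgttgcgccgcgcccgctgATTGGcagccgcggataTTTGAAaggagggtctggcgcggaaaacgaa
KIF4A, chrX:70289954-70290103, plus strand: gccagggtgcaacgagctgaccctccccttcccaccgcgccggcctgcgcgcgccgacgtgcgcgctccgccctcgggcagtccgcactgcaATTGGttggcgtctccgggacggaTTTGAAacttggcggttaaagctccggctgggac
NDC80, chr18:2571407-2571556, plus strand: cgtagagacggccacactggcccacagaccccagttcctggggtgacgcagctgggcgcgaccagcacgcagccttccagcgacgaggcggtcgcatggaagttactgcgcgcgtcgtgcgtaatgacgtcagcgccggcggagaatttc
KIF20A, chr5:138178962-138179111, plus strand: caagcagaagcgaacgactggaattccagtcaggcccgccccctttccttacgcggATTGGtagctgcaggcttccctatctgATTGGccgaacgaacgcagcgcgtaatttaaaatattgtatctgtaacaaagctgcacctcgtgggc
CCNB2, chr15:59104996-59105145, plus strand: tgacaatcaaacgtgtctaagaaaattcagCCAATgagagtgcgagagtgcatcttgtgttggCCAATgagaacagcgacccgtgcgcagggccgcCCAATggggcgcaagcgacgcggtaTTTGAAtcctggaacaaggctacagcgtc
TOP2A, chr17:40417897-40418046, minus strand: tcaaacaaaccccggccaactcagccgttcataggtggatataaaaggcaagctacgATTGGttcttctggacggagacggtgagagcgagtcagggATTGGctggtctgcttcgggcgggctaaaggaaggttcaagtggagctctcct
MAD2L1, chr4:120066849-120066998, minus strand: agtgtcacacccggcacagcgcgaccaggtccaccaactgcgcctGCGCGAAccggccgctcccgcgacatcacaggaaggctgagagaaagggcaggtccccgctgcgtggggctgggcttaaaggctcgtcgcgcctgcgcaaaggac

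ESPL1 and KIF4A, the genes that rose most, shared one arrangement, with ATTGG 48 and 58 bases and TTTGAA 31 and 34 bases before the start. NDC80, the next by size of rise, held none of the words in the stretch shown, and KIF20A held ATTGG alone, at 94 and 67 bases before the start. CCNB2, which did not pass the test, had CCAAT at 120, 87 and 54 bases and TTTGAA 29 bases before the start, so the same pair of words stood in a gene with a small change. TOP2A carried ATTGG at 93 and 53 bases, and further upstream, outside the stretch shown, CHR-like words at 151 and 194 bases, so it too held both words. MAD2L1 carried one E2F-like word, TTCGCGC read from the other strand, 105 bases before the start, and a CCAAT-type word at 229 bases, outside the stretch shown.

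Over all members, 48 of the 57 matched the RefSeq promoter table, with 61 promoters. AURKA, FOXM1, BUB3, TTK, UBE2C, KNL1, BIRC5, TPX2 and RACGAP1 were not matched. In the 250 bases before the start, a CHR-like word was found in 49.2% of the members' promoters, in 10.1% of the 11752 promoters of genes tested and in 14.3% of all 35116 promoters. CCAAT was found in 68.9%, 33.8% and 32% of them, and an E2F-like word in 26.2%, 16.7% and 10.9%. CHR-like and CCAAT words occurred together in 37.7% of members' promoters, 3.99% of those of genes tested and 5.05% of all. Among members alone, the CHR-like word stood in 17 of 30 promoters (56.7%) of genes called higher and in 11 of 28 (39.3%) of genes tested and not called. CCAAT stood in 73.3% and 60.7% of these, and the E2F-like word in 16.7% and 32.1%. Promoters of one gene overlap, these shares were not tested, and a matching word is not evidence of a bound site.

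**Figure D2:**
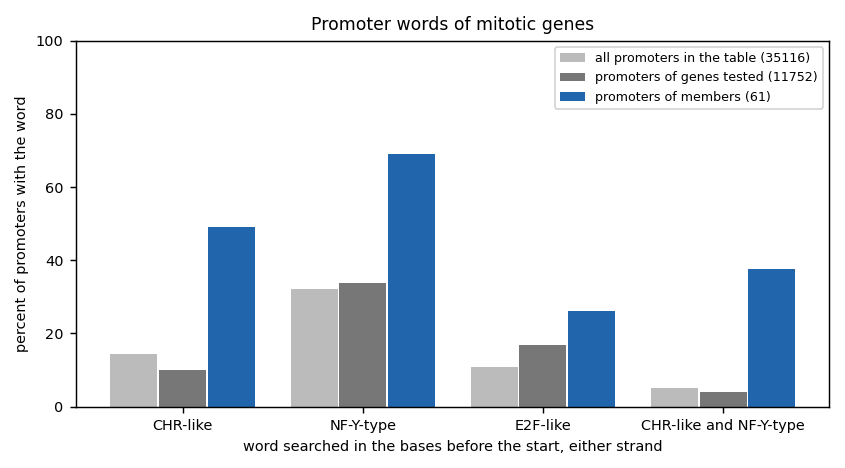
Percent of promoters with each word in the 250 bases before the start, on either strand, for all promoters in the RefSeq table, promoters of genes tested and promoters of members. The bars of members are the highest in every category, at 49.2%, 68.9%, 26.2% and 37.7%.

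Among the 9 genes of mitotic entry, 4 rose (44.4%, against 7.78% of all genes tested): CCNB1, CDK1, PLK1 and FOXM1. CCNB1, the B-type cyclin needed for entry, stood at 76.9 and 81.3 FPKM in the control libraries against 93.3 and 91.9 FPKM with drug, a log2 fold change of 0.23 ± 0.03 (SE, as after each log2 fold change from here on; limma adjusted p = 0.0200). CDK1, its kinase partner, was at 41.0 and 41.1 FPKM in control against 45.2 and 48.3 FPKM with drug (0.18 ± 0.04, adjusted p = 0.0419). In both genes each drug library exceeded each control, as in 40.3% of all genes tested. The ratio of CCNB1 to CCNB2 was 4.29 and 4.69 in control and 5.15 and 5.08 with drug. CCNB2, the other B-type cyclin, read 17.9 and 17.3 FPKM in control and 18.1 in both drug libraries, a log2 fold change of 0.04 with a 95% interval from -0.05 to 0.12.

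PLK1, the Polo kinase that acts at centrosomes, kinetochores and the midzone, had the largest log2 fold change of this group, from 12.4 and 12.7 FPKM to 15.3 and 16.2 FPKM (0.30 ± 0.04, adjusted p = 0.0138). FOXM1, a transcription factor of late cell cycle genes, was 18.6 FPKM in both controls and 21.6 and 23.0 FPKM with drug (0.24 ± 0.04, adjusted p = 0.0218). The rises were 25.2% and 19.5% of the control mean. Both drug libraries stood above both controls in either gene, as in 40.3% of all genes tested. AURKA, the Aurora kinase of spindle poles, had the highest level of all 57 genes and lay at 157 and 158 FPKM in control against 148 and 143 FPKM with drug. Its log2 fold change was -0.11 ± 0.03 and missed the limma threshold (adjusted p = 0.0628), whereas edgeR on recovered reads gave an adjusted p of 0.0141 and the authors' deposited table a log2 fold change of -0.15 with an adjusted p of 0.000567. TPX2, which activates AURKA on the spindle, rose, and the ratio of TPX2 to AURKA was 0.452 and 0.466 in control and 0.573 and 0.596 with drug. The S-phase and mitotic cyclin CCNA2 (41.6 and 42.9 against 46.0 and 44.4 FPKM) and the CDK1-activating phosphatases CDC25B (16.7 and 17.1 against 17.9 and 19.3 FPKM) and CDC25C (3.96 and 3.65 against 4.50 and 4.55 FPKM) did not pass, with log2 fold changes of 0.10, 0.13 and 0.20. Of the 4 genes called, CCNB1 kept an adjusted p under 0.05 without control library 2 (0.0466), PLK1 and FOXM1 without drug library 1 (0.0400 and 0.0440), and CDK1 in none of the fits with 1 library left out (0.0536 to 0.146).

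The 9 genes of the spindle checkpoint and the anaphase trigger included 6 that rose. ESPL1, which encodes separase, the protease that cuts cohesin, was at 2.44 and 2.29 FPKM in control against 4.79 and 4.77 FPKM with drug. These values rest on 618, 786, 1713 and 1639 recovered reads, and the mean with drug was 2.02 times that of control (log2 fold change 0.78 ± 0.05, adjusted p = 0.00320). Of all genes tested, 52 had a larger log2 fold change, and ESPL1 had the lowest adjusted p of the mitotic genes. PTTG1 encodes securin, the inhibitor of separase, and was at 45.6 and 45.9 FPKM in control against 49.99 and 50.4 FPKM with drug (0.13 ± 0.03, adjusted p = 0.0338). The ratio of separase to securin message was 0.0535 and 0.0499 in control and 0.0957 and 0.0945 with drug. PTTG1 was not called by edgeR or in the authors' deposited table, while ESPL1 was called by both.

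Of the checkpoint kinases, BUB1, which marks kinetochores for the checkpoint, was at 23.8 and 23.4 FPKM in control against 28.1 and 28.2 FPKM with drug (0.24 ± 0.03, adjusted p = 0.0106). BUB1B, a subunit of the inhibitor of the anaphase-promoting complex, went from 21.1 and 20.48 FPKM to 26.6 and 25.3 FPKM (0.31 ± 0.04, adjusted p = 0.0112). TTK, the kinase that starts checkpoint signalling, went from 21.9 and 21.8 FPKM to 24.9 and 25.8 FPKM (0.20 ± 0.03, adjusted p = 0.0205). BUB3 and MAD2L1 did not pass. BUB3, which carries BUB1 and BUB1B to kinetochores, was at 24.0 and 24.3 FPKM against 25.2 and 25.6 FPKM (0.07, 95% interval -0.0028 to 0.14), and MAD2L1, the checkpoint protein that binds CDC20, at 15.5 and 16.0 against 16.4 and 15.5 FPKM (0.02, -0.09 to 0.12). MAD2L1 was slightly below 0 after TMM scaling, at -0.01. The ratio of BUB1B to BUB3 was 0.878 and 0.844 in control and 1.05 and 0.991 with drug. CDC20, the activator of the anaphase-promoting complex that the checkpoint inhibits, rose from 46.3 and 47.8 FPKM to 54.9 and 58.4 FPKM (0.26 ± 0.04, adjusted p = 0.0198). UBE2C, a ubiquitin-conjugating enzyme of that complex, had a similar difference, 35.2 and 37.8 against 44.2 and 41.1 FPKM, but did not pass limma (0.22 ± 0.05, adjusted p = 0.0550). DESeq2 called UBE2C higher (adjusted p = 0.0432), while edgeR (adjusted p = 0.0531) and the authors' deposited table (adjusted p = 0.0857) did not. With 1 library left out, ESPL1 passed in all 4 fits, CDC20 without drug library 1 (0.0386) and BUB1B without drug library 2 (0.0384), and BUB1, TTK and PTTG1 in none (0.0537 to 0.148).

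In the kinetochore group 6 of the 7 genes tested rose. NDC80, NUF2, SPC24 and SPC25 form the complex that grips microtubules. NDC80 was at 17.4 and 17.6 FPKM in control against 24.6 and 22.6 FPKM with drug (0.41 ± 0.05, adjusted p = 0.00971), an increase of 34.6% in the mean. NUF2, its coiled-coil partner, went from 14.1 and 14.5 FPKM to 17.2 FPKM in both drug libraries (0.25 ± 0.03, adjusted p = 0.0129). The ratio of NDC80 to NUF2 message was 1.23 and 1.22 in control and 1.43 and 1.32 with drug. SPC24 was at 5.32 and 5.30 FPKM in control against 6.43 and 6.64 FPKM with drug (0.25 ± 0.04, adjusted p = 0.0231), and DESeq2 did not call it (adjusted p = 0.0805). SPC25 lay under 1 FPKM in all 4 libraries (0.307, 0.750, 0.679 and 0.523 FPKM, from 16, 53, 50 and 37 reads) and was not tested, so the 4 subunits of the complex were not recorded at like levels.

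CENPA, the histone variant that marks centromeres, was at 10.9 and 11.5 FPKM in control against 13.8 and 14.0 FPKM with drug (0.29 ± 0.04, adjusted p = 0.0156). Its exons overlap those of SLC35F6 on the same strand, which read 8.82 and 9.53 FPKM in control against 10.1 and 11.2 FPKM with drug. The part of that overlap in the CENPA value was not tested. CENPF, a large protein of the outer kinetochore, rose from 18.8 and 17.8 FPKM to 22.8 and 21.7 FPKM (0.27 ± 0.04, adjusted p = 0.0209). KNL1, the scaffold that recruits BUB1, rose from 11.0 and 10.8 FPKM to 12.2 and 12.9 FPKM (0.18 ± 0.04, adjusted p = 0.0469). CENPE, the kinetochore kinesin that carries chromosomes to the spindle equator, was at 7.91 and 7.71 against 9.03 and 8.30 FPKM and did not pass (0.13 ± 0.05, adjusted p = 0.144). With 1 library left out, NDC80 passed without drug library 1 and without drug library 2, with a lowest adjusted p of 0.0209, and the other 5 passed in none, with KNL1 reaching 0.172.

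Of the 9 kinesins, 5 rose. KIF4A, a motor of chromosome arms and the central spindle, was at 33.6 and 36.0 FPKM in control against 48.3 and 46.8 FPKM with drug (0.44 ± 0.04, adjusted p = 0.00680), the largest rise after that of ESPL1. KIF20A, which brings the chromosomal passenger complex to the central spindle, went from 15.1 and 15.6 FPKM to 19.7 and 18.9 FPKM (0.32 ± 0.04, adjusted p = 0.0109). KIF23, the motor of the centralspindlin complex, went from 24.4 and 23.9 FPKM to 29.4 and 28.7 FPKM (0.26 ± 0.03, adjusted p = 0.0108). These 3 motors work at the central spindle during anaphase and cytokinesis. KIF11, which pushes spindle poles apart, was at 19.2 and 19.6 FPKM in control against 23.5 and 23.2 FPKM with drug (0.25 ± 0.03, adjusted p = 0.0108). KIF2C, which takes microtubule ends apart at centromeres, was at 16.0 and 16.7 FPKM in control against 18.4 and 19.0 FPKM with drug (0.18 ± 0.04, adjusted p = 0.0397).

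The other 4 kinesins did not pass limma. KIF18A, which limits chromosome oscillation at the spindle equator, was at 6.15 and 6.57 against 7.36 and 8.19 FPKM (0.25 ± 0.06, adjusted p = 0.0599), and edgeR called it higher (adjusted p = 0.0339). KIF14, needed late in cytokinesis, was at 10.1 and 9.83 against 10.7 and 10.9 FPKM (0.11 ± 0.04, adjusted p = 0.112). KIF20B, a relative of KIF20A, was at 10.8 and 10.0 against 11.9 and 11.1 FPKM (0.13, 95% interval -0.01 to 0.27). KIF15, a motor that helps hold spindles bipolar, was the kinesin with a value below 0, at 2.42 and 1.46 FPKM in control against 1.03 and 1.57 FPKM with drug, from 364, 297, 220 and 320 reads. The KIF15 groups overlapped and its interval was wide, from -0.85 to 0.16 around -0.34. KIF4A passed in all 4 fits with 1 library left out (adjusted p 0.0284 to 0.0381), KIF20A and KIF23 passed without drug library 2 (0.0411 and 0.0484), and KIF11 and KIF2C passed in none (0.0536 to 0.159).

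**Figure D3:**
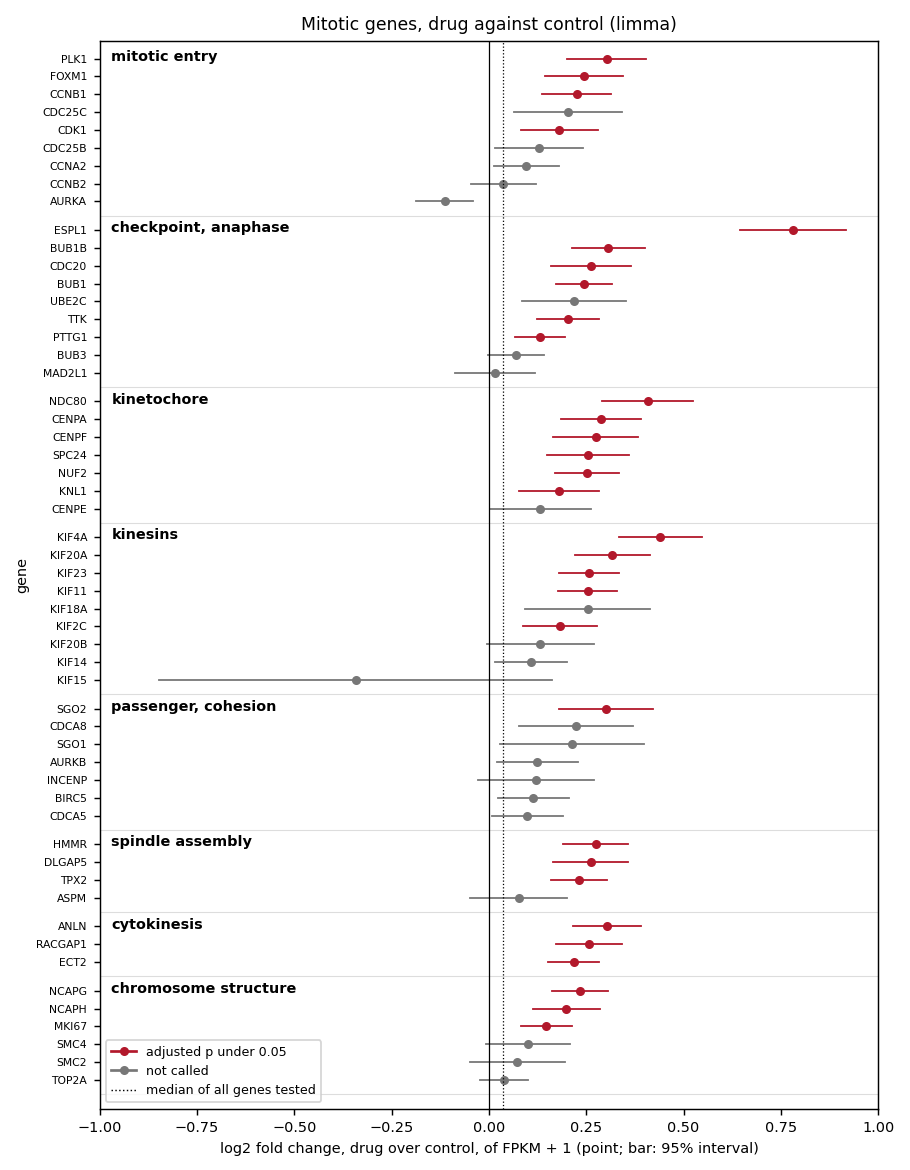
Log2 fold change of drug over control for the 54 mitotic genes tested, on the FPKM + 1 scale, grouped by role, with points for the estimates and bars for 95% intervals, red where the adjusted p was under 0.05 and grey otherwise. ESPL1 stands apart at 0.78, AURKA and KIF15 lie left of 0, and the dotted line marks the median of all genes tested at 0.04.

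Of the 7 genes of the chromosomal passenger complex and of cohesion protection 1 rose (14.3%, against 7.78% of all genes tested). Both drug libraries exceeded both controls in all 7, a separation that 40.3% of all genes tested showed. SGO2, a shugoshin that shields centromeric cohesin, rose from 13.9 and 13.1 FPKM to 17.3 and 16.3 FPKM (0.30 ± 0.05, adjusted p = 0.0211). SGO1, the other shugoshin, was at 3.88 and 4.53 against 5.09 and 4.97 FPKM and did not pass (0.21 ± 0.07, adjusted p = 0.113). The passenger complex consists of the kinase AURKB, the scaffold INCENP, CDCA8 and BIRC5 (survivin), which target it to centromeres. CDCA8 was at 17.8 and 18.4 against 22.6 and 20.2 FPKM (0.22 ± 0.06, limma adjusted p = 0.0643). DESeq2 called CDCA8 higher (adjusted p = 0.0383), while edgeR (adjusted p = 0.0573) and the authors' deposited table (adjusted p = 0.0761) did not. AURKB was at 23.0 and 23.9 against 24.9 and 26.4 FPKM, and BIRC5 at 25.7 and 24.4 against 27.3 and 27.1 FPKM, with log2 fold changes of 0.12 and 0.11. None of these 4 subunits passed limma, INCENP included (13.5 and 13.2 against 13.8 and 15.4 FPKM, 0.12, 95% interval -0.03 to 0.27). CDCA5 (sororin), which stabilises cohesin on chromatin, had the smallest log2 fold change of the 7, with 14.2 and 14.3 against 15.005 and 15.6 FPKM (0.10 ± 0.04, adjusted p = 0.130). AURKB relative to AURKA was 0.146 and 0.152 in control and 0.168 and 0.185 with drug. In fits with 1 library left out SGO2 did not pass (0.0553 to 0.0907), and CDCA8 passed without drug library 2.

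Of the 5 spindle assembly genes, 4 were tested and 3 rose (75%, against 7.78% of all genes tested). TPX2, which nucleates microtubules near chromosomes, was at 71.1 and 73.5 FPKM in control against 84.9 and 85.1 FPKM with drug (0.23 ± 0.03, adjusted p = 0.0112). HMMR, a spindle-associated hyaluronan receptor, went from 19.2 and 19.5 FPKM to 24.1 and 23.2 FPKM (0.27 ± 0.03, adjusted p = 0.0113). DLGAP5, which stabilises kinetochore microtubules, went from 31.6 and 29.8 FPKM to 37.4 and 36.6 FPKM (0.26 ± 0.04, adjusted p = 0.0174). The 3 rises ran from 17.6% to 22.0% of the control mean. ASPM, a spindle pole protein, had overlapping groups, 13.3 and 12.7 against 14.3 and 13.3 FPKM (0.08, 95% interval -0.05 to 0.20). NUSAP1, a microtubule-bundling protein, was recorded at 0.0680, 0.0431, 0.0344 and 0.0430 FPKM from 7, 6, 5 and 6 reads and was not tested. With 1 library left out, TPX2 passed without control library 2 (0.0466), DLGAP5 without control library 1 (0.0456) and HMMR without drug library 2 (0.0431).

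All 3 cytokinesis genes tested rose. ECT2, the exchange factor that switches on the GTPase of the contractile ring, was at 62.4 and 63.6 FPKM in control against 73.7 and 73.1 FPKM with drug (0.22 ± 0.03, adjusted p = 0.0108). RACGAP1, which recruits ECT2 and pairs with KIF23 in centralspindlin, went from 25.8 and 26.7 FPKM to 32.0 and 31.1 FPKM (0.26 ± 0.03, adjusted p = 0.0130). ANLN (anillin), which scaffolds the ring, went from 35.9 and 34.8 FPKM to 44.7 and 43.0 FPKM (0.30 ± 0.03, adjusted p = 0.00973). KIF23 and RACGAP1, the 2 subunits of centralspindlin, had ratios that overlapped between groups: the ratio of their messages was 0.947 and 0.897 in control and 0.920 and 0.924 with drug. PRC1, the microtubule crosslinker that works with KIF4A, was recorded at 0.165, 0.103, 0.0989 and 0.140 FPKM from 26, 22, 22 and 30 reads and was not tested. Exons of PRC1 overlap those of AC068831.7 on the same strand, which read 1.07, 1.09, 1.03 and 1.27 FPKM. Those of NUSAP1 overlap AC087721.2, which is not among the genes of the deposited table. How reads in such shared exons were assigned is not given in the sources used here, and its part in the low values of PRC1 and NUSAP1 was not tested. ANLN lost its call without control library 2 (adjusted p 0.0577) and kept it in the other 3 such fits, while ECT2 and RACGAP1 passed in none (0.0518 to 0.0682).

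Among the 6 genes of chromosome structure, 3 rose (50%, against 7.78% of all genes tested). NCAPG and NCAPH are subunits of condensin, the complex that compacts mitotic chromosomes, and SMC2 and SMC4 are its ATPase arms. NCAPG was at 21.6 and 21.4 FPKM in control against 25.4 FPKM in both drug libraries (0.23 ± 0.03, adjusted p = 0.0113). NCAPH was at 17.6 and 17.8 FPKM in control against 20.1 and 20.9 FPKM with drug (0.20 ± 0.03, adjusted p = 0.0255). The arms did not pass: SMC2 was at 24.7 and 25.0 against 27.4 and 25.1 FPKM (0.07, 95% interval -0.05 to 0.20) and SMC4 at 16.5 and 15.6 against 17.7 and 17.0 FPKM (0.10, -0.01 to 0.21). NCAPG relative to SMC2 was 0.874 and 0.854 in control and 0.928 and 1.02 with drug. MKI67, the coat protein of mitotic chromosomes used to score proliferation, rose from 52.8 FPKM in both controls to 58.0 and 59.1 FPKM (0.15 ± 0.03, adjusted p = 0.0272). TOP2A, the topoisomerase that untangles sister chromatids and another common proliferation marker, was at 73.6 and 73.3 against 75.7 and 75.2 FPKM, a log2 fold change of 0.04 with an interval from -0.02 to 0.10, and edgeR placed it at -0.0021. None of the 6 passed with any 1 library left out (adjusted p of the 3 called genes 0.0602 to 0.127).

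Set side by side, 6 of 7 kinetochore genes, 5 of 9 kinesins, 6 of 9 checkpoint and anaphase genes and 3 of 3 cytokinesis genes rose, where 7.78% of all genes tested rose, with median log2 fold changes of 0.25, 0.25, 0.22 and 0.26. With 1 library left out, 0 to 1, 1 to 3, 1 to 2 and 0 to 1 of them passed. The median was 0.18 for mitotic entry, 0.25 for spindle assembly, and 0.12 both for the passenger and cohesion genes and for chromosome structure. No gene of any of the 8 groups fell by limma. Differences between these role groups were not tested. Of the 23 genes tested and not called, 10 had a 95% interval that included 0, and the other 13 had intervals on one side of it without passing the adjusted threshold.

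Of 121 other mitotic genes, taken from 5 further lists, 111 were tested, 26 rose (23.4%, against 7.78% of all genes tested) and 0 fell (against 6.02%), with a median log2 fold change of 0.09. With no filter on low values 3 passed, where 170 of all 26603 genes were called higher. After TMM scaling 12 were called higher and 0 lower, where 4.89% of all genes were called higher and 6.44% lower. On recovered reads edgeR called 23 higher and 6 lower (NSL1, ANAPC1, ANAPC16, NDEL1, HAUS6 and NEK9), with 8.37% of all genes higher and 11.0% lower. With control library 1 or drug library 1 left out 0 passed, and with control library 2 (FAM83D, CHMP4B) or drug library 2 (CEP55, CKAP2) left out 2 passed. Among 27 other kinetochore and centromere genes 5 rose: PMF1 (0.32), ZWINT (0.21), ZW10 (0.14), ZWILCH (0.15) and HJURP, the loader of CENPA (0.28). Of 26 other spindle, kinesin and cytokinesis genes 13 rose, those with the lowest adjusted p being DEPDC1 (0.24), CKAP2L (0.30), CKAP2 (0.25), TACC3 (0.25), CEP55 (0.25) and CHMP4B (0.24). Of 25 other entry and exit regulators 7 rose, including ARPP19 (0.20) and ENSA (0.16), inhibitors of the phosphatase that reverses mitotic phosphorylation, with LIN9 (0.24), MELK (0.16), KPNA2 (0.19) and LMNB1 (0.16). Of 17 genes of the anaphase-promoting complex 1 rose, CDC16 (0.19), a share of 5.88% that lies below the 7.78% of all genes tested. In that list edgeR and DESeq2 each called 2 of the 17 genes higher (CDC16 and UBE2S) and 2 lower (ANAPC1 and ANAPC16). Of all genes, edgeR called 8.37% higher and 11.0% lower, and DESeq2 called 7.94% higher and 9.32% lower. None of 16 cohesin and other condensin genes passed limma. At an unadjusted limma p under 0.05, 2 of the 16 were higher, where 2357 of all 11227 genes tested were. In this list edgeR called 0, and DESeq2 called 1 higher (MAU2, adjusted p = 0.0454).

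Of 20 genes of the G1/S transition and DNA replication, 3 rose (15%, against 7.78% of all genes tested) and 1 fell (against 6.02%). RRM2, a subunit of ribonucleotide reductase, was at 22.2 and 21.8 FPKM in control against 27.8 and 28.98 FPKM with drug (0.35 ± 0.03). CCNE1, the cyclin of S-phase entry, and TYMS, thymidylate synthase, rose by 0.30 and 0.19 on the log2 scale. MCM3, a subunit of the replicative helicase, fell by 0.24 on that scale, from 141 and 138 FPKM to 118 FPKM in both drug libraries. The median log2 fold change of the 20 was 0.09. RRM2 passed in all 4 fits with 1 library left out, MCM3 lost its call without control library 1 (adjusted p 0.0529), CCNE1 passed without drug library 2 alone, and TYMS passed in none. Neither edgeR nor DESeq2 called TYMS, and both called MCM5 higher.

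**Figure D4:**
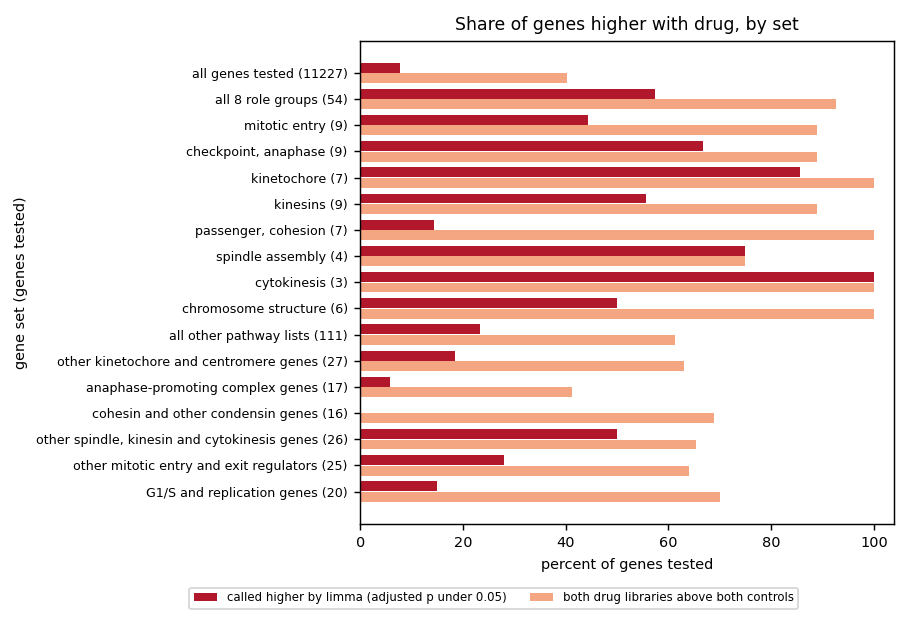
Percent of genes tested in each set that limma called higher with drug (dark bars) and percent with both drug libraries above both controls (light bars), for all genes tested, the mitotic genes (all 8 role groups together, then each), and other lists of the pathway. The dark bar is 7.78% for all genes and 57.4% for the mitotic genes, while the light bars are 40.3% and 92.6%.

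The largest changes map to ESPL1 on chromosome 12 (chr12:53268299-53293643, plus strand), KIF4A on chromosome X (chrX:70290090-70420832, plus strand) and NDC80 on chromosome 18 (chr18:2571511-2616635, plus strand), and AURKA lies on chromosome 20 (chr20:56369389-56392337, minus strand), in GENCODE 29 on GRCh38. Values are given per gene, so levels of single exons were not analysed here. Exons of 20 members overlap a gene on the opposite strand, and 12 members have like-named copies such as pseudogenes, whose reads may be shared. BUB1B shares exons with the read-through gene BUB1B-PAK6, which is not among the genes of the deposited table. The gene length implied by the deposited values was within 1% of the GENCODE exon length for 32 of the 57 members, and for NCAPH it was 2.00 times that length, which bears on its FPKM level relative to other genes and not on its fold change.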

How the data were processed

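Messenger RNA of PLC8024 cells was sequenced in 2 control and 2 drug libraries. The submitters' processing notes name bcl2fastq, which demultiplexes reads, and the build hg38. Which aligner, counter, annotation and test the authors used is not given in the sources used here. One deposited table was used, and 0 of its per-sample columns were left unused. Its per-library columns are FPKM values that the authors made, a unit read from the values because the header names none. The deposited group columns hold a signal, the mean over a group's libraries of read counts that the authors had divided by size factors. The deposited log2 fold changes, p-values and adjusted p-values are the authors' own test, per the file headers, and were used only where the authors' deposited table is named. For ESPL1, KIF4A and AURKA those log2 fold changes equal the ones of DESeq2 on recovered reads, at 0.984, 0.416 and -0.147. The DESeq2 run is therefore not a check separate from the authors' deposited table.

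Genes whose mean reached 1 FPKM in either group entered limma 3.58.1 (with its trend option) on log2(FPKM + 1), with 2 residual degrees of freedom, Benjamini-Hochberg adjustment over all genes tested and a threshold of 0.05. Log2 fold changes are on the log2(FPKM + 1) scale, which understates the change of low genes. An exact permutation test of 2 against 2 libraries cannot go below p = 0.333, so none was used. Whole reads per library were recovered from the FPKM and group columns together, and 100% of the recovered values lay less than 0.1 from a whole count. The alternatives tried were other pseudocounts (0.1 and 0.01), all genes with no filter, a replicate block, each library left out in turn, TMM-scaled FPKM, and edgeR 4.0.16 and DESeq2 1.42.0 on recovered reads. DESeq2 was run on the whole table, and edgeR on the genes that limma tested. With 1 library left out, the lone library of its group is assumed to vary like the other group.

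Every mitotic gene is accounted for. Values in every library were given for those past the limma threshold and for the largest rise and the lowest value in each role group, and of the other pathway lists the genes past the threshold were named, at most 6 for each list and direction. NSL1, ANAPC1, ANAPC16, UBE2S, NDEL1, HAUS6, NEK9, FAM83D, MAU2 and MCM5 fall outside that rule and were chosen once their values had been seen. The members and lists were chosen with earlier results of these data known. Of the table's identifiers 25091 of 26603 were in GENCODE 29. The scripts were tested on simulated data. With groups of 2, no library could be tested as an outlier. Software versions were R 4.3.3 and Python 3.11.15 with matplotlib 3.10.9, pandas 2.3.3 and numpy 2.4.6.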

Additional observations from a re-analysis of the deposited data

How the results depend on the processing

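With 2 libraries in each group, the numbers of genes called higher differed most from the reported fit in 2 kinds of run. These were the fits with 1 library left out and the fit with no filter on low values. Mitotic genes called higher, 31 in the reported fit, numbered 12 with no filter on low values and 4 to 9 with 1 library left out (4 without control library 1 or control library 2, 7 without drug library 1, 9 without drug library 2). All genes called higher, 873 as reported, numbered 170 with no filter, 115 to 221 with 1 library left out, and 549 after TMM scaling. All genes called lower, 676 as reported, numbered 214 with no filter, 188 to 274 with 1 library left out, 1233 by edgeR and 1230 by DESeq2. Mitotic genes called lower, 0 as reported, numbered 1 by edgeR and 1 by DESeq2, AURKA in both. Their median log2 fold change, 0.22 as reported, was 0.23 with a pseudocount of 0.01, 0.20 with no filter (over all 57 genes), 0.20 to 0.22 with 1 library left out, 0.19 after TMM scaling, 0.18 by edgeR and 0.19 by DESeq2 (over all 57). MAD2L1 ran from -0.023 to 0.054 with 1 library left out, below 0 without control library 1 (-0.0049) and without drug library 1 (-0.023), and was also below 0 after TMM scaling (-0.012), by edgeR (-0.024) and by DESeq2 (-0.017), as was TOP2A by edgeR (-0.0021), and neither passed under any of these. With no filter more genes enter both the adjustment and the trend that limma fits, and with 1 library left out the fit has fewer samples. Which of these moved the calls was not tested, nor was the cause of the other differences.

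With the replicate number as a block (replicate block), 25 mitotic genes, 12 of the 111 other mitotic genes (26 as reported) and 474 of all genes were called higher. Samples of the same number shared only that number: their deviations from the group means correlated at 0.0278 across genes. Of the 31 mitotic genes called, 31 kept their call with a pseudocount of 0.1, 31 with 0.01, 26 after TMM scaling, 30 by edgeR and 29 by DESeq2.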
